A study of Mus musculus with 4 samples.

Results

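The 49 genes described here encode the kinases, cyclins, motors, kinetochore proteins and cytokinesis factors that carry a cell through mitosis. They were chosen by gene symbol, each had at least 1 probe on the array, and all 49 were among the 19391 genes that could be tested. The RNA came from preproB cells, an early B-lineage stage, sorted from C57BL/6 mouse bone marrow as lineage-negative, B220+, CD43+, BP1- and CD24- cells. The 2 EnhDel samples came from mice with floxed copies of the +37 kb Cebpa enhancer and the Mx1-Cre transgene, both aged 24 weeks. The 2 control samples came from mice with the same floxed enhancer but no Mx1-Cre, aged 26 weeks for replicate 1 and 24 weeks for replicate 2. Mx1-Cre is driven by an interferon-responsive promoter, and pIpC, a synthetic double-stranded RNA, turns it on. Mice of both groups received 3 doses of pIpC, and marrow was taken 5 weeks later. Only the EnhDel mice carried Cre, so enhancer loss and Cre itself cannot be told apart. The labels do not say whether a sample is 1 mouse or a pool, and the p-values below measure the spread between these 4 samples alone.

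Entry into mitosis is driven by the kinase Cdk1 bound to A-type and B-type cyclins, and the Aurora and Polo-like kinases then organise centrosomes, spindle and chromosome attachment. Kinetochores tie chromosomes to spindle microtubules, the spindle checkpoint holds the anaphase-promoting complex (APC/C) until all are attached, and the central spindle then directs cytokinesis. Most of these genes are transcribed late in the cell cycle, when the DREAM complex is replaced by MuvB with B-Myb and FoxM1 at their promoters. In B-cell development, bursts of division are best known from the pro-B and large pre-B stages that follow the preproB stage. In a bulk sample, fewer dividing cells and less RNA per dividing cell cannot be told apart.

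Values are 1-colour Agilent signals. A normalized signal is the background-corrected intensity after each array was scaled to its 75th percentile, and differences are on the log2 scale, EnhDel minus control. Between 59.57% and 64.87% of the probes were well above background on each array, which is the scanner software's call. The Cebpa signal was 135 and 286 on the EnhDel arrays, against 1294 and 845 on the control arrays, which runs the way the labels say, with a difference of -2.41 ± 0.44 (SE, adjusted p = 0.237). Cebpa itself is not deleted in these mice, so its level checks the labels only indirectly. Sex-linked transcripts went against the labels of 2 samples. Xist, which is made from the inactive X chromosome, was well above background on EnhDel replicate 2 alone, with a signal of 1547 there and 3.11 on EnhDel replicate 1, against 3.47 and 2.79 on the control arrays. EnhDel replicate 2 is labelled male, and it also carried Y-linked RNA, with a Ddx3y signal of 1557 against 3914 on EnhDel replicate 1. Control replicate 1 is labelled female, and its Ddx3y signal of 3172 was close to the 3166 of control replicate 2, which is labelled male. The library labelled EnhDel replicate 2 also carries most of the difference described below, so values of each EnhDel array stand beside the pooled ones. Results of the 49 genes, read from a fit over all tested genes, are given with and without that library.

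All 49 mitosis and spindle genes had a lower mean level in the EnhDel samples than in the controls, as did 40.2% of all tested genes, and none of the 49 passed the test. The median log2 difference over the 49 genes was -1.46, beside 0.07 over all tested genes. Both EnhDel signals lay below both control signals for 46 of the 49 genes. Over all tested genes, 15.5% showed that separation in that direction. The group means differed by at least 2-fold for 42 of the 49, beside 2.98% of all tested genes. Ttk and Cenpf were tested only because both control arrays were well above background, since EnhDel replicate 2 was not. With a filter requiring all 4 arrays, 47 genes remained, all 47 were lower, 44 did not overlap and 40 were more than 2-fold lower. The matching shares of all 18217 genes tested under that filter were not counted. With limma, 0 of the 49 genes had a Benjamini-Hochberg adjusted p under 0.05, and 0% of all tested genes did in either direction. The lowest adjusted p among the 49 was 0.195 and the highest was 0.686. At an unadjusted p under 0.05, 9 of the 49 were lower, beside 3.96% of all tested genes, and 2173 genes passed in either direction. An exact two-sided permutation test of 2 arrays against 2 can give no p below 0.333.

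The 2 EnhDel arrays were far apart for these genes. On EnhDel replicate 2 the median difference from the control mean was -2.35, and 46 of the 49 genes were at least 2-fold lower, beside 4.21% of all tested genes. On EnhDel replicate 1 the median was -0.65, and 1 of the 49, Aurkb, was at least 2-fold lower, beside 1.89% of all tested genes. EnhDel replicate 1 was nevertheless below both controls for 46 of the 49 genes, where 28.3% of all tested genes were, and EnhDel replicate 2 was below both for all 49, where 38.7% were. The controls were also ordered, since control replicate 1 was below control replicate 2 for all 49 genes with a median gap of 0.53, beside 42.4% of all tested genes. For 45 of the 49 the signals ran in one order, with EnhDel replicate 2 lowest, then EnhDel replicate 1, control replicate 1 and control replicate 2, an order that 6.81% of all tested genes shared. EnhDel replicate 2 was below EnhDel replicate 1 for 48 of the 49, beside 51.3% of all tested genes. The plot of the 49 genes on each array shows that order repeated across every role. With EnhDel replicate 1 left out, 41 of the 49 genes passed an adjusted p of 0.05 as lower, beside 5.3% of all tested genes, and the median was -2.35. Without EnhDel replicate 2, 0 passed, beside 0.139% of all tested genes, and the median was -0.65. With control replicate 1 or control replicate 2 left out, 0 passed, beside 0.00516% and 0.0258% of all tested genes. Each of these fits assumes that the lone array of a group varies as the other group does. The arrays did not bear that out: over all tested genes the SD of the log2 difference was 0.611 between the EnhDel arrays and 0.333 between the controls. For the 49 genes the median gap was -1.76 from EnhDel replicate 1 to EnhDel replicate 2. Without EnhDel replicate 1, the spread in the fit came from the control arrays alone.

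**Figure D1:**
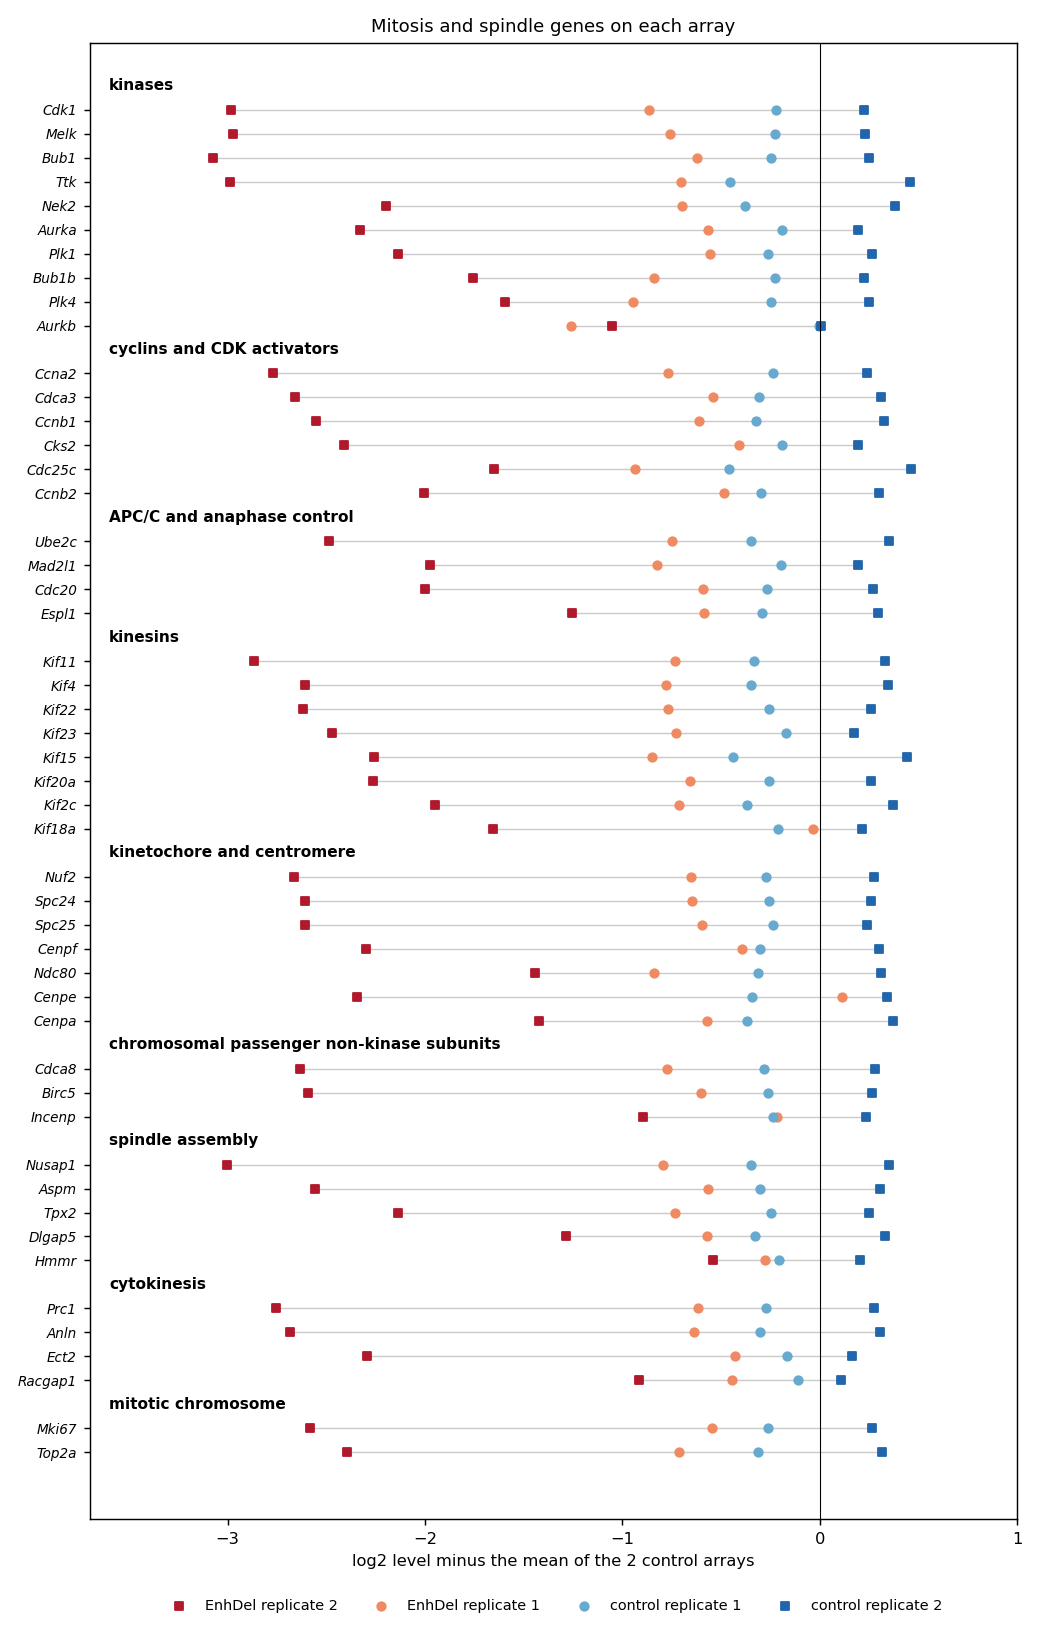
Log2 level of each of the 49 genes on each array, minus the mean of the 2 control arrays, grouped by role; squares and circles are single arrays and the grey line spans them. EnhDel replicate 2 is lowest for 48 genes, and EnhDel replicate 1 lies below both control arrays for 46.

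**Figure D2:**
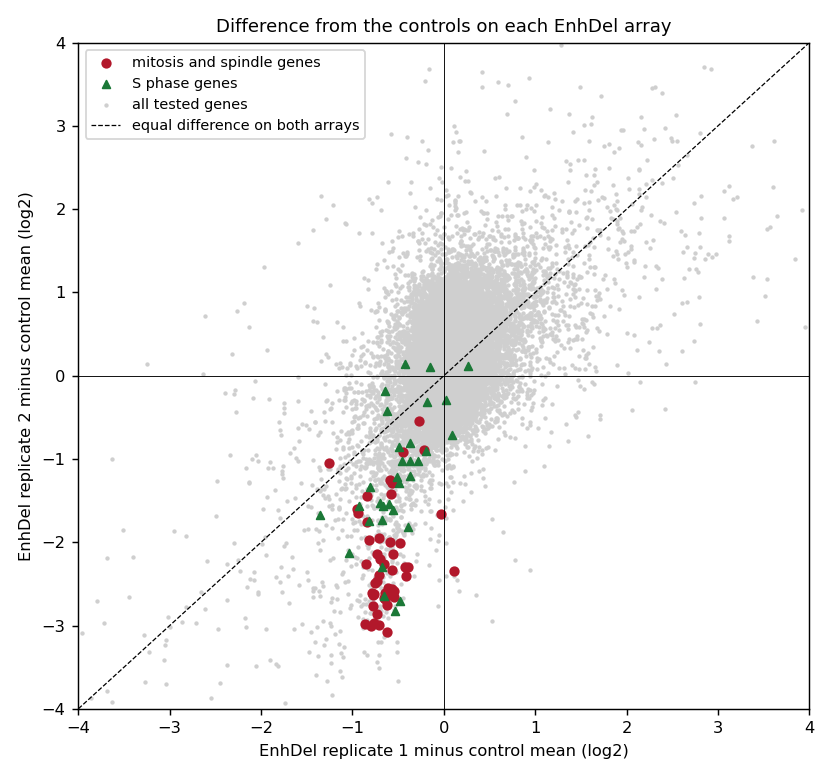
Log2 difference from the control mean on EnhDel replicate 1 (horizontal axis) and EnhDel replicate 2 (vertical axis), each point a gene; both axes subtract the same control mean, and points beyond 4 log2 units are not drawn. The 49 mitosis and spindle genes in red lie mostly below the dashed line of equal difference, with medians of -0.65 and -2.35.

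The promoters of the 49 genes were read to see what they share in sequence. RefSeq promoter windows of build GRCm38.p6, from 250 bases before to 50 bases after the listed start, were matched by symbol for 41 of the 49. The CHR, a binding element of the MuvB core in late cell cycle promoters, was searched as TTTGAA on both strands. The NF-Y box was searched as CCAAT on both strands, and a gene with several listed starts counted if any window held the motif. TTTGAA was found in 29 of the 41, or 70.7%, beside 20.2% of all 27025 genes with a window and 15.0% of the 11158 of those that were tested. CCAAT was found in 30 of the 41, or 73.2%, beside 41.1% of all genes with a window and 42.9% of the tested ones. The hexamer and the pentamer can share an end base where they abut. Both were present in 25 of the 41, or 61.0%, beside 7.97% and 6.2%. In the 29 genes with TTTGAA, the hit nearest the start began within 50 bases of it in 27. The median difference, EnhDel minus control, was -1.56 for the 29 genes with TTTGAA and -1.52 for the 12 without it. Genes with and without this exact hexamer thus had like medians. The related hexamer TTCGAA was in 7.32% of the 41 windows, beside 1.8% of all genes with a window, and TTTAAA in 26.8%, beside 14.9%. Of the 12 genes without TTTGAA, Bub1 held TTCGAA, and Plk4, Cenpe, Birc5 and Ccnb1 held TTTAAA. Neither motif, nor either related hexamer, was found in the windows of Melk, Mad2l1, Kif18a, Nuf2 and Nusap1. The windows printed run from 100 bases before to 30 bases after the start, 5′ to 3′ on the gene's strand, with both motifs and their reverse complements in capitals. Cdk1 (chr10:69352883-69353012, minus strand) had the largest difference of the 49 by its brightest probe and Hmmr (chr11:40733408-40733537, minus strand) the smallest, and both hold both motifs. These ranks depend on the values used: in the authors' deposited table Nusap1 (-1.75) had the largest and Cenpf (-0.40) the smallest difference. Nusap1 (chr2:119618198-119618327, plus strand) and Kif18a (chr2:109280638-109280767, plus strand) hold neither, and their differences were among the larger and the smaller. Ccnb2 (chr9:70421525-70421654, minus strand), Cdc20 (chr4:118437314-118437443, minus strand) and Kif11 (chr19:37376282-37376411, plus strand) show how the motifs lie, with CCAAT boxes before the hexamer in Ccnb2 and Kif11 and on both sides of it in Cdc20.
Cdk1: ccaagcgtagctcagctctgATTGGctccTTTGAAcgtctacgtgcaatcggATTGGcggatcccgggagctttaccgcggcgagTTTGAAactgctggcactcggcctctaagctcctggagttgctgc
Nusap1: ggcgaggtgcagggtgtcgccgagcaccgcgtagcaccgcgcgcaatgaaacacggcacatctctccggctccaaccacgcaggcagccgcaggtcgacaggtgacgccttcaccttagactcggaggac
Kif11: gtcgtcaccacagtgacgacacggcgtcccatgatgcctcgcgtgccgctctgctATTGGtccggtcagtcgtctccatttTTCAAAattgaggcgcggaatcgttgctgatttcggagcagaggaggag
Cdc20: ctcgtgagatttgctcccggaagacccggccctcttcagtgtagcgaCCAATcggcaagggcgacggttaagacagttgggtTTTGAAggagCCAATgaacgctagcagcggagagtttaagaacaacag
Ccnb2: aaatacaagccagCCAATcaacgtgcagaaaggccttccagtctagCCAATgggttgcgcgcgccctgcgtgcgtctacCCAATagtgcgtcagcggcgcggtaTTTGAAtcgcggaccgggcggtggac
Kif18a: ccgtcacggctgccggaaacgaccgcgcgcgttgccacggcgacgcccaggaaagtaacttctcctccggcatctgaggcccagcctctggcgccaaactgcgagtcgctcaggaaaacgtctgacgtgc
Hmmr: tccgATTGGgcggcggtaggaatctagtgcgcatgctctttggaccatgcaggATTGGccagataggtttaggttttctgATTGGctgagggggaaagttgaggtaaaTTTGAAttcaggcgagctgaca
A match of these letters is a description of the window and no measure of binding. The same hexamer stands near the start of Cdk1, where the log2 difference was -1.92, and of Hmmr, where it was -0.41.

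**Figure D3:**
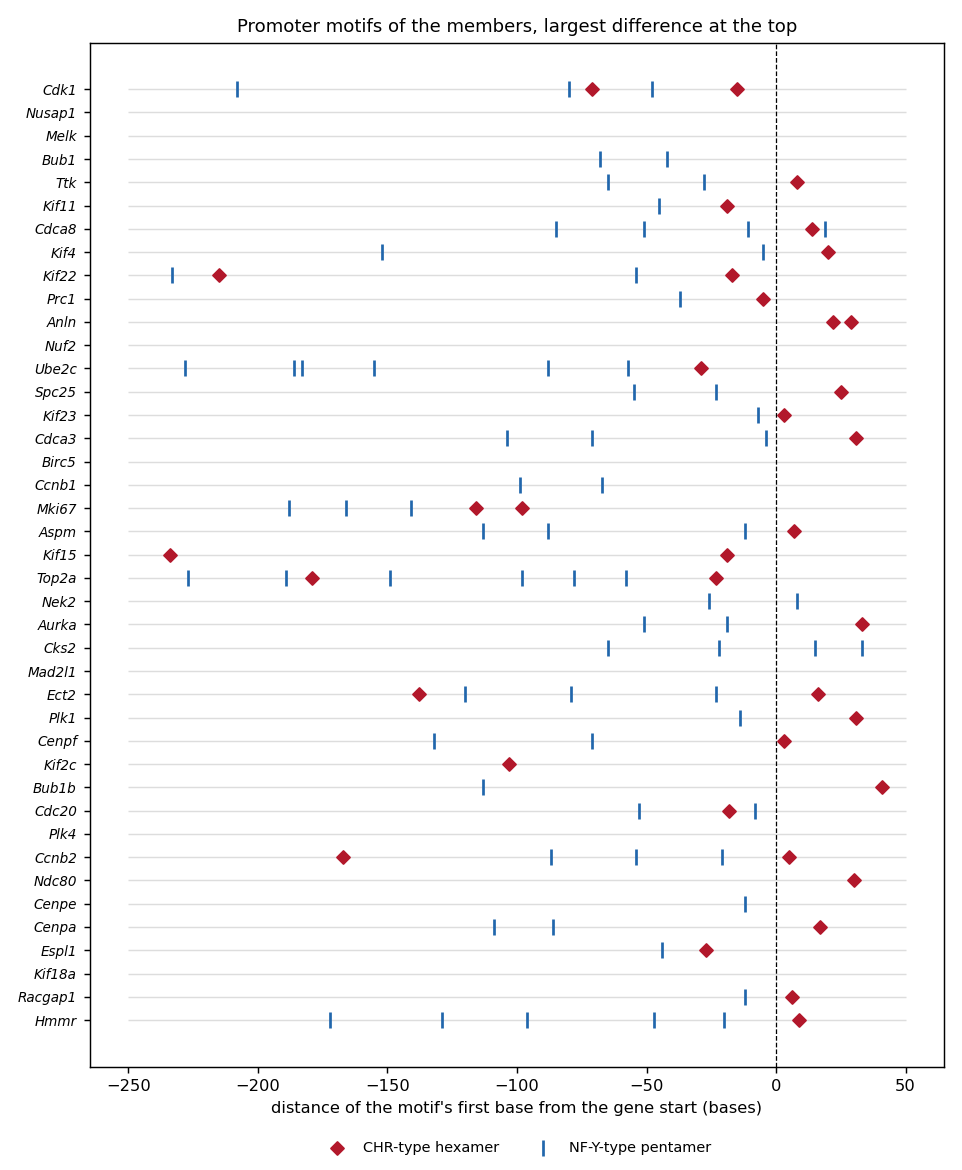
Position of the CHR-type hexamer (diamonds) and the NF-Y-type pentamer (bars) in the 41 matched promoter windows, in bases from the listed start, with the genes ordered by log2 difference, EnhDel minus control, the largest at the top; for a gene with several listed starts 1 is drawn. The diamonds gather near the start in genes at the top and at the bottom alike, and 29 genes have at least 1.

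All 10 mitotic kinases had both EnhDel arrays below both controls, beside 15.5% of all tested genes. Their median difference was -1.45, made of -0.73 on the first EnhDel array and -2.26 on EnhDel replicate 2. Cdk1, the kinase that starts mitosis, had a normalized signal of 784 and 181 on the EnhDel arrays, against 1223 and 1667 on the control arrays (probe at chr10:68801072-68801131, mm9). EnhDel replicate 2 was far below the other arrays, and EnhDel replicate 1 was below both controls. The log2 difference was -1.92 ± 0.74 (SE), with a 95% interval of -3.92 to 0.07 and an adjusted p of 0.459. The probes of Cdk1 disagreed: the 2 dimmer ones gave -1.38 and -0.04. Bub1, a checkpoint kinase that sits at kinetochores, had signals of 485 and 88.3 on the EnhDel arrays, against 627 and 885 on the control arrays. Its difference on EnhDel replicate 2, -3.08, was among the most negative of the 49 genes, while EnhDel replicate 1 stood at -0.62. Its relative Bub1b, which encodes the checkpoint protein BubR1, had signals of 374 and 198 on the EnhDel arrays, against 573 and 783 on the control arrays. The Bub1b arrays did not overlap, and the difference was -1.30 ± 0.37 (SE, adjusted p = 0.374).

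Aurkb was an exception to the order of the arrays, as were Kif18a, Cenpe and Incenp, described below. Aurkb encodes the catalytic kinase of the chromosomal passenger complex, which corrects wrong attachments. Its signal was 16.4 and 19.0 on the EnhDel arrays, against 39.2 and 39.5 on the control arrays (probe at chr11:68865105-68865164, mm9). Both EnhDel arrays were at about the same level, as were both controls, and Aurkb was the 1 gene of the 49 with EnhDel replicate 2 above EnhDel replicate 1. The difference was -1.16 ± 0.16 (SE, 95% interval -1.59 to -0.73), with the smallest adjusted p of the 49, 0.195. This is a dim probe, since the lowest signals called well above background were 11.5 to 14.7 on the 4 arrays, and its sign turned, to 0.85, under normexp, an alternative background correction. That held before the repair of 6 spots with extreme local background on EnhDel replicate 1, and after it all 49 genes were lower. Aurka, the kinase of centrosomes and spindle poles, followed the common order with signals of 1648 and 485 on the EnhDel arrays, against 2133 and 2783 on the control arrays. EnhDel replicate 2 stood apart from the rest, and the difference was -1.45 ± 0.63 (SE, adjusted p = 0.489).

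The Polo-like kinases had smaller differences than Cdk1 or Bub1. Plk1, needed for spindle assembly and mitotic exit, had signals of 2142 and 717 on the EnhDel arrays, against 2626 and 3789 on the control arrays. Plk4, which controls centriole duplication, had signals of 27.9 and 17.8 on the EnhDel arrays, against 45.3 and 64.0 on the control arrays. Plk4 was dim, its EnhDel arrays were closer to each other than those of Plk1, and its difference was -1.27 ± 0.31 (SE, adjusted p = 0.322). Like Aurkb, it turned sign under unrepaired normexp, to 0.65. Melk, a kinase of dividing progenitor cells, had signals of 474 and 102 on the EnhDel arrays, against 686 and 940.0 on the control arrays, and its difference was -1.87. Nek2, which acts in centrosome separation, had signals of 210.3 and 74.4 on the EnhDel arrays, against 263 and 444 on the control arrays. Ttk, the checkpoint kinase also called Mps1, had signals of 25.5 and 5.23 on the EnhDel arrays, against 30.3 and 57.0 on the control arrays. The Ttk probe was not well above background on EnhDel replicate 2, so its value there is only a bound. The 3 of the 10 kinases with an unadjusted limma p under 0.05 were Aurkb, Plk4 and Bub1b, beside 3.96% of all tested genes on the lower side.

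Cyclins and activators of Cdk1 showed the same ladder of arrays. All 6 of these genes had both EnhDel arrays below both controls, beside 15.5% of all tested genes. Their median difference was -1.50, while EnhDel replicate 1 had a median of -0.58 and EnhDel replicate 2 one of -2.48. Ccna2, or cyclin A2, which acts in S phase and at mitotic entry, had signals of 1683 and 421 on the EnhDel arrays, against 2433 and 3382 on the control arrays. That gave a difference of -1.77 ± 0.71 (SE, adjusted p = 0.467). Ccnb1, the main mitotic cyclin, had signals of 1300.2 and 339 on the EnhDel arrays, against 1588 and 2490.4 on the control arrays. Ccnb2, a B-type cyclin found at the Golgi, had signals of 3595 and 1253 on the EnhDel arrays, against 4090.3 and 6184 on the control arrays. Both B-type cyclins had EnhDel replicate 1 just under control replicate 1 and EnhDel replicate 2 far under it, and the difference was -1.58 for Ccnb1 and -1.24 for Ccnb2. Cdc25c, the phosphatase that removes inhibitory phosphates from Cdk1, had signals of 40.2 and 24.5 on the EnhDel arrays, against 55.8 and 106 on the control arrays. Its difference of -1.29 ± 0.42 (SE, adjusted p = 0.405) turned to 0.45 under unrepaired normexp. Cks2, a small subunit bound by Cdk1, had signals of 842 and 210.4 on the EnhDel arrays, against 979 and 1277 on the control arrays. Cdca3, a protein that promotes mitotic entry, had signals of 3916 and 903 on the EnhDel arrays, against 4593 and 7059 on the control arrays. For Cks2 and Cdca3 the EnhDel arrays differed from each other by more than EnhDel replicate 1 differed from the controls.

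Genes of the APC/C and anaphase had a median difference of -1.35 over 4 members. All 4 had both EnhDel arrays below both controls, beside 15.5% of all tested genes. Ube2c, the ubiquitin-conjugating enzyme of the APC/C, had signals of 1566 and 470.1 on the EnhDel arrays, against 2067 and 3356 on the control arrays. Cdc20, the activator that the checkpoint restrains, had signals of 2483 and 934 on the EnhDel arrays, against 3107 and 4499 on the control arrays. In both, EnhDel replicate 2 was the array that stood apart, and the differences were -1.62 for Ube2c and -1.30 for Cdc20. Mad2l1, the checkpoint protein that binds Cdc20, had signals of 1652 and 744 on the EnhDel arrays, against 2553 and 3348 on the control arrays. Its EnhDel arrays both sat clear of the controls, with a difference of -1.40 ± 0.44 (SE, adjusted p = 0.389). Espl1, or separase, which cuts cohesin, had signals of 221 and 139 on the EnhDel arrays, against 271 and 406 on the control arrays. That spread was narrower, and the difference of -0.92 ± 0.33 (SE, adjusted p = 0.436) was under 2-fold.

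Mitotic kinesins had a median difference of -1.58, and 7 of the 8 had both EnhDel arrays below both controls, beside 15.5% of all tested genes. Kif11, the motor also called Eg5 that pushes spindle poles apart, had signals of 316 and 72.3 on the EnhDel arrays, against 418 and 663 on the control arrays. EnhDel replicate 2 was well below all other arrays, and the difference was -1.80 ± 0.77 (SE, adjusted p = 0.484). Kif15, which works beside Kif11 on bipolar spindles, had signals of 170.4 and 64.2 on the EnhDel arrays, against 226 and 418 on the control arrays. Its difference was -1.56 ± 0.58 (SE, adjusted p = 0.445), with the widest gap between the controls of any kinesin. Kif4, a chromosome-arm and midzone motor whose gene lies on the X chromosome, had signals of 211 and 59.5 on the EnhDel arrays, against 285 and 462 on the control arrays. Kif22, a chromokinesin, had signals of 2246 and 623 on the EnhDel arrays, against 3199 and 4578 on the control arrays. Both of these chromosome-bound motors had EnhDel replicate 1 below control replicate 1, and their differences were -1.70 for Kif4 and -1.69 for Kif22. Kif23, the motor of the centralspindlin complex, had signals of 749 and 224 on the EnhDel arrays, against 1104 and 1400.1 on the control arrays. Kif20a, a motor of the central spindle, had signals of 896 and 294 on the EnhDel arrays, against 1179 and 1690.2 on the control arrays. Kif2c, which depolymerises microtubules at centromeres, had signals of 66.4 and 28.2 on the EnhDel arrays, against 84.2 and 140.3 on the control arrays. These 3 kept the common order, with differences of -1.60 for Kif23, -1.46 for Kif20a and -1.33 for Kif2c.

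Kif18a was the kinesin whose groups overlapped. It encodes a motor that damps chromosome movements at the metaphase plate. Its signal was 175 and 56.6 on the EnhDel arrays, against 154 and 207 on the control arrays, so EnhDel replicate 1 lay between the controls and EnhDel replicate 2 alone was low. The difference of -0.84 ± 0.59 (SE, adjusted p = 0.652) therefore rested on 1 array: EnhDel replicate 1 stood at -0.03 and EnhDel replicate 2 at -1.66.

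Kinetochore and centromere genes, 7 in all, had a median difference of -1.35. Of these, 6 had both EnhDel arrays below both controls, beside 15.5% of all tested genes. The 4 subunits of the NDC80 complex, the rod that grips microtubules, were all measured. Ndc80 had signals of 154 and 101 on the EnhDel arrays, against 222 and 342 on the control arrays. Nuf2 had signals of 260.4 and 64.4 on the EnhDel arrays, against 339 and 494 on the control arrays. These subunits form the end of the rod that binds microtubules, and Spc24 and Spc25 the end that faces the centromere. Spc24 had signals of 646 and 166 on the EnhDel arrays, against 846 and 1211 on the control arrays. The fourth subunit, Spc25, had signals of 3932 and 976 on the EnhDel arrays, against 5054 and 7019 on the control arrays. All 4 subunits were lower on both EnhDel arrays than on both controls, but they did not share 1 size of difference on EnhDel replicate 2: it was -1.44 for Ndc80, against -2.67 for Nuf2, -2.61 for Spc24 and -2.61 for Spc25. On EnhDel replicate 1, Ndc80 had the most negative value of the 4, -0.84, and the others lay between -0.65 and -0.60. Ndc80 was also the 1 subunit with an unadjusted p under 0.05, and its adjusted p was 0.373.

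Among centromere proteins, Cenpe ran against the rest on 1 array. Cenpe is a kinetochore motor that brings chromosomes to the spindle equator. Its signal was 3498 and 637 on the EnhDel arrays, against 2553 and 4103 on the control arrays. EnhDel replicate 1 lay above control replicate 1 and below control replicate 2, and EnhDel replicate 2 was the lowest array. The difference was -1.12 ± 0.87 (SE, 95% interval -3.46 to 1.23), its adjusted p of 0.686 was the highest of the 49, and without EnhDel replicate 2 the difference turned to 0.11. Cenpa, the histone H3 variant that marks centromeres, had signals of 1139 and 632 on the EnhDel arrays, against 1312 and 2191 on the control arrays. Cenpf, a large kinetochore protein of G2 and mitosis, had signals of 20.5 and 5.47 on the EnhDel arrays, against 21.8 and 33.2 on the control arrays. The Cenpf probe was not well above background on EnhDel replicate 2, and its difference turned to 0.88 under unrepaired normexp, while Cenpa stood at -0.57 on EnhDel replicate 1 and at -1.42 on EnhDel replicate 2 (adjusted p = 0.470).

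The other subunits of the chromosomal passenger complex, which holds Aurkb, did not share 1 size of difference. Birc5, or survivin, had signals of 9549 and 2398 on the EnhDel arrays, against 12077 and 17386 on the control arrays. Cdca8, or borealin, had signals of 2879 and 793 on the EnhDel arrays, against 4050.4 and 5980.2 on the control arrays. Both had EnhDel replicate 1 below the controls and EnhDel replicate 2 far below, with differences of -1.60 ± 0.71 and -1.70 ± 0.67 (SE). Incenp, the scaffold of the complex, had signals of 10638 and 6640.3 on the EnhDel arrays, against 10501 and 14558 on the control arrays. Its EnhDel replicate 1 lay just above control replicate 1, so the groups overlapped, and the difference was -0.56 ± 0.31 (SE, adjusted p = 0.584). A further Incenp probe, over nearly the same bases, gave -0.64.

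Spindle assembly factors spanned nearly the whole range of differences. Nusap1, which bundles spindle microtubules, had signals of 1018 and 220.3 on the EnhDel arrays, against 1385 and 2252 on the control arrays, with a difference of -1.90 ± 0.80 (SE, adjusted p = 0.479). Tpx2, the activator of Aurora A on the spindle, had signals of 738 and 279 on the EnhDel arrays, against 1032 and 1459 on the control arrays. Its groups did not overlap and its difference was -1.44, though a dimmer Tpx2 probe gave -0.54. Aspm, a spindle pole protein, had signals of 1123 and 282 on the EnhDel arrays, against 1349 and 2051 on the control arrays. Dlgap5, which stabilises kinetochore fibres, had signals of 123 and 75.01 on the EnhDel arrays, against 146 and 229.6 on the control arrays. Of these 2, Aspm had the lower EnhDel replicate 2, and the difference was -1.56 for Aspm and -0.93 for Dlgap5. Hmmr, a spindle protein also known as a hyaluronan receptor, had signals of 940.3 and 782 on the EnhDel arrays, against 987 and 1313 on the control arrays. All 4 Hmmr arrays lay close together without overlap, and its difference of -0.41 ± 0.22 (SE, adjusted p = 0.565) was small beside those of the other spindle assembly factors.

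Cytokinesis genes and the mitotic chromosome proteins closed the series of events. Prc1, which crosslinks the central spindle, had signals of 2492 and 567 on the EnhDel arrays, against 3162 and 4630.2 on the control arrays. Anln, or anillin, a scaffold of the contractile ring, had signals of 1062 and 258 on the EnhDel arrays, against 1338 and 2043 on the control arrays. Ect2, which activates RhoA at the division site, had signals of 1152 and 316 on the EnhDel arrays, against 1384 and 1738 on the control arrays. In these 3 genes EnhDel replicate 2 was the array that stood apart, with differences from the controls there of -2.76 for Prc1, -2.68 for Anln and -2.30 for Ect2. Racgap1, the partner of Kif23 in centralspindlin, had signals of 2172 and 1571 on the EnhDel arrays, against 2746 and 3193 on the control arrays. On EnhDel replicate 2 it stood at -0.91 from the controls, where Kif23 stood at -2.47, and its overall difference was -0.68 ± 0.23 (SE, adjusted p = 0.410). Top2a, the topoisomerase that untangles sister chromatids, had signals of 963 and 299.9 on the EnhDel arrays, against 1270.3 and 1960.2 on the control arrays. Mki67, which encodes the proliferation antigen Ki-67 on mitotic chromosomes, had signals of 10523 and 2566 on the EnhDel arrays, against 12802 and 18437 on the control arrays. Neither overlapped between the groups, and their differences were -1.55 ± 0.62 for Top2a and -1.56 ± 0.72 for Mki67 (SE). A further Mki67 probe gave -1.54.

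Further probes of the same genes ran in the same direction. The 49 genes had 67 probes, 66 of these were tested, and all 66 had a negative difference. Of 13 genes with more than 1 tested probe, the median gap between probes was 0.21, and in 2 of them, Cdk1 and Tpx2, it was over 0.5. The genes lie on 17 chromosomes, with at most 8 on any of them. Across the 49 genes, the difference and the mean level had a Pearson r of -0.01 and a Spearman rho of -0.05. When each EnhDel array was set against the control array of its own number, the 49 paired differences had r = 0.01 and rho = 0.18. These are descriptions across genes, which share 4 arrays and are not independent.

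Other genes of division were read from lists by role, and none of them passed the test either. Of 32 other kinetochore and centromere genes, 31 had a lower mean and 29 had EnhDel arrays below the controls without overlap, beside 40.2% and 15.5% of all tested genes. Their median was -0.99, with EnhDel replicate 1 at -0.56 and EnhDel replicate 2 at -1.27. Cenpi, a subunit of the inner kinetochore network, had signals of 374 and 260.2 on the EnhDel arrays, against 574 and 725 on the control arrays, a difference of -1.05 ± 0.26 (SE, adjusted p = 0.320). Ska2, of the complex that tracks microtubules at kinetochores, stood at -0.72 on EnhDel replicate 1 and -1.24 on the other EnhDel array. Mis18a, which helps load Cenpa, stood at -0.53 and -0.70 on the same arrays. None of these 3 overlapped between the groups, but they were named for the smallest p of their list, so this is no separate support. Of 24 tested spindle motors and microtubule binders, 23 had a lower mean and 19 showed no overlap in that direction. Their median was -1.02, with EnhDel replicate 1 at -0.46 and EnhDel replicate 2 at -1.57. Stil, a centriole assembly protein, had signals of 114 and 49.7 on the EnhDel arrays, against 176 and 232 on the control arrays. Iqgap3, a scaffold of dividing cells, stood at -1.03 on EnhDel replicate 1 and -2.79 on the other EnhDel array. Of 15 other regulators of mitotic entry, 13 had a lower mean and 11 showed no overlap in that direction. Their median was -0.95, with EnhDel replicate 1 at -0.51 and EnhDel replicate 2 at -1.29. Wee1, the kinase that restrains Cdk1, had signals of 361 and 224 on the EnhDel arrays, against 518 and 577 on the control arrays, and was lower on both EnhDel arrays alongside the activators. Condensin and cohesin genes had a median of -0.37 over 18, with EnhDel replicate 1 at -0.11 and EnhDel replicate 2 at -0.69, and 9 showed no overlap on the lower side, beside 15.5% of all tested genes. The genes of that list with the smallest p were Ncapd2, Cdca5 and Ncaph. They stood at -0.68, -0.80 and -0.82 on EnhDel replicate 1, and at -1.70, -2.56 and -2.70 on the other EnhDel array. The 16 APC/C subunits and securin had a median of -0.06, with EnhDel replicate 1 at 0.04 and EnhDel replicate 2 at -0.19. Of these, 12 had a lower and 4 a higher mean. No overlap was seen for 4 lower and 4 higher genes, beside 15.5% of all tested genes on the lower and 28.6% on the higher side. Within that list Fbxo5, the inhibitor of the APC/C, stood at -0.66 on EnhDel replicate 1 and -1.63 on the other EnhDel array. Securin, Pttg1, stood at 0.20 and 0.42 on the same arrays. The median of that list thus lay near the 0.07 of all tested genes, unlike the values of Cdc20 and Ube2c.

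Regulators of late cell cycle transcription ran in both directions. The 12 genes of MuvB and FoxM1 had a median of -0.18, with EnhDel replicate 1 at -0.07 and EnhDel replicate 2 at -0.24, and 7 had a lower and 5 a higher mean. No overlap was seen for 6 lower and 3 higher genes, beside 15.5% and 28.6% of all tested genes. Mybl2, or B-Myb, had signals of 1135 and 530.3 on the EnhDel arrays, against 1600.2 and 1916 on the control arrays, a difference of -1.17 ± 0.41 (SE, adjusted p = 0.424). Lin9, a MuvB subunit, had signals of 362 and 268 on the EnhDel arrays, against 512 and 592 on the control arrays, and both of its EnhDel arrays were below both controls. Foxm1 itself had signals of 748 and 562 on the EnhDel arrays, against 770.1 and 967 on the control arrays, with EnhDel replicate 1 just below control replicate 1.

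Of 32 S phase genes, 31 had a lower mean and 27 showed no overlap on the lower side, beside 40.2% and 15.5% of all tested genes, with a median of -0.88. For that list EnhDel replicate 1 had a median of -0.51 and EnhDel replicate 2 one of -1.25. The mitosis genes stood at -0.65 and -2.35 on the same arrays, and the difference between the lists was not tested. Chaf1a, a subunit of the chromatin assembly factor that follows the replication fork, had signals of 517 and 332 on the EnhDel arrays, against 893 and 1085 on the control arrays. Its EnhDel arrays lay clear of the controls, with a difference of -1.25 ± 0.28 (SE, adjusted p = 0.296). Gins2, a subunit of the replicative helicase, had signals of 197 and 136 on the EnhDel arrays, against 321 and 371 on the control arrays, a difference of -1.07 ± 0.24 (SE). Among 11 tested G1 cyclins and CDK inhibitors the median was -0.16, with EnhDel replicate 1 at 0.03 and EnhDel replicate 2 at -0.40. In that list 1 gene had an unadjusted p under 0.05 as higher, beside 7.25% of all tested genes. That gene was Cdkn1c, which encodes the CDK inhibitor p57, with signals of 82.5 and 105 on the EnhDel arrays, against 23.0 and 34.0 on the control arrays. Cdkn1c was higher on both EnhDel arrays than on both controls, with a difference of 1.74 ± 0.27 (SE, adjusted p = 0.205).

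**Figure D4:**
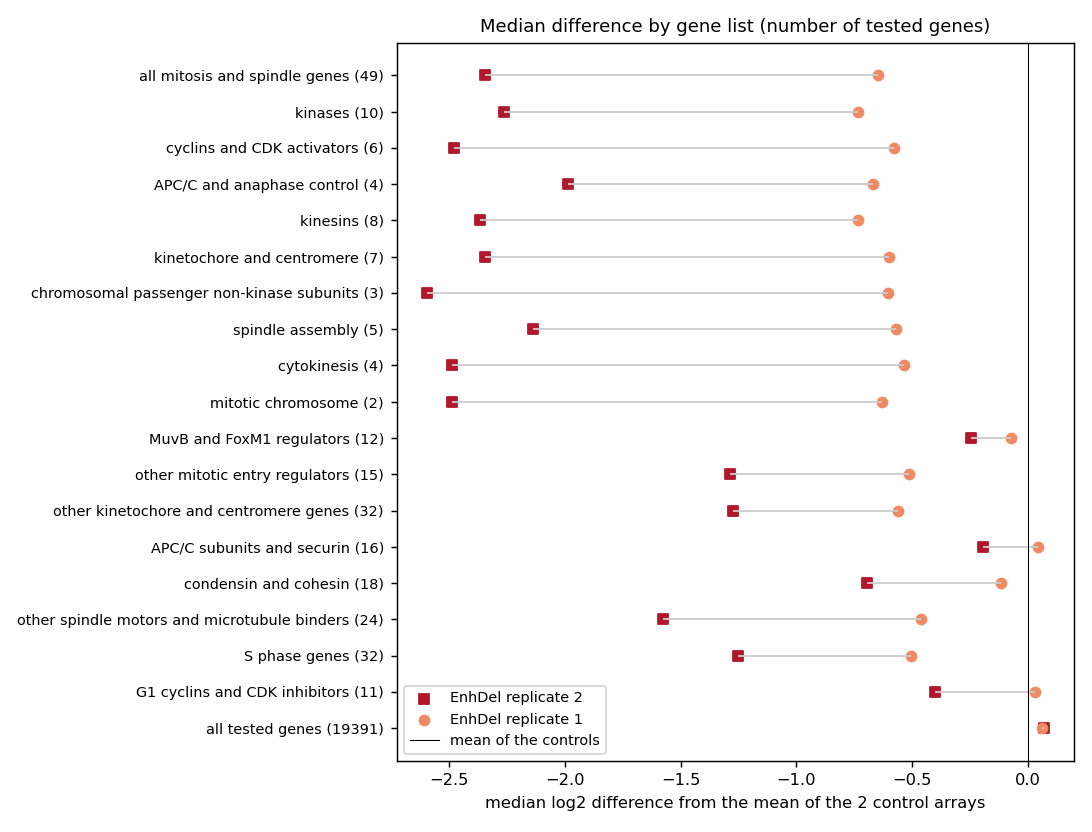
Median log2 difference from the control mean on EnhDel replicate 2 (squares) and EnhDel replicate 1 (circles) for all 49 genes, for each role among them and for the other lists of division genes, with the number of tested genes in brackets. Every role of the 49 lies between -2.59 and -1.99 on EnhDel replicate 2 and between -0.73 and -0.53 on EnhDel replicate 1, and all tested genes lie at 0.07 and 0.06.

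Summed signals of some marker lists differed between the groups. Summed signals of the 49 genes were 83340 and 28380 on the EnhDel arrays, against 101200 and 145700 on the control arrays. For 12 markers of B-lineage progenitors the sums were 181400 and 147000 on the EnhDel arrays, against 183700 and 178800 on the control arrays, and the median of their differences was -1.50. Of these 12 markers, 9 had a lower mean, and Il7r at 0.16, Dntt at 0.13 and Blnk at 0.08 a higher one. At least 11 of the 12 were well above background on every array. That list held Igll1, a pre-B-cell receptor gene of dividing stages, with signals of 394 and 75.4 on the EnhDel arrays, against 1395 and 2369 on the control arrays, and Ebf1, a B-lineage transcription factor, with signals of 157 and 59.4 on the EnhDel arrays, against 399 and 600.2 on the control arrays. Both were in the same order of arrays as most of the 49 genes, with EnhDel replicate 2 lowest and control replicate 2 highest. Of the 12 markers, 7 showed that order, beside 6.81% of all tested genes, and Flt3, Il7r, Dntt, Cd79b and Blnk did not. For 10 markers of plasmacytoid dendritic cells, all well above background on every array, the sums were 782700 and 777200 on the EnhDel arrays, against 791300 and 715900 on the control arrays. These were the largest sums of any marker list on every array, above those of the B-lineage progenitor markers. The 7 measured monocyte markers summed to 1361 and 2113 on the EnhDel arrays, against 11440 and 10310 on the control arrays, and 4 to 7 of them were well above background on an array. The 10 neutrophil markers summed to 1178 and 10790 on the EnhDel arrays, against 19740 and 23660 on the control arrays, with Ltf and Mmp8 not above background on any array. Of the 8 neutrophil markers tested, 6 had a lower mean and Camp and Lcn2 a higher one, and Mpo was the largest part of the sum on each array, with signals of 577 and 7205 on the EnhDel arrays, against 13932 and 16560.4 on the control arrays. The 9 T cell markers summed to 19490 and 31160 on the EnhDel arrays, against 12500 and 10330 on the control arrays, with 8 or 9 well above background. Most of that sum was Cd4, with signals of 15584 and 28013 on the EnhDel arrays, against 9075 and 8021 on the control arrays. Of the 8 T cell markers tested, 7 had a higher mean and Lat, at -0.09, a lower one. The 8 NK cell markers summed to 16710 and 13780 on the EnhDel arrays, against 17090 and 14830 on the control arrays. Mature B cell markers, 6 in all, summed to 14770 and 17300 on the EnhDel arrays, against 15340 and 14630 on the control arrays. The 7 measured erythroid markers summed to 2065 and 2653 on the EnhDel arrays, against 1054 and 1367 on the control arrays. The part of any of these cells in the mitosis values was not tested.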

How the data were processed

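RNA of sorted preproB cells was measured on 1-colour Agilent arrays, 2 EnhDel and 2 control, on 1 slide and from 1 scan. The scanner files that the authors deposited hold intensity per spot, written by Agilent Feature Extraction 10.7.3.1 per the file headers, with a background-corrected processed signal and flags. The authors also deposited 1 table of log2 values per array, whose normalization is not given in the sources used here; it served as an alternative. Spots marked as outliers (126 to 162 per array) and control spots were left out, and no spot was saturated. Processed signals were divided by the 75th percentile of their array and taken to log2, and spots of a probe were averaged. Accessions gave current gene names from RefSeq (GRCm38.p6) for 26581 of 39429 probes. Probe positions are the array's own, on mm9. Each gene was represented by its brightest probe among those well above background on 2 arrays of the same group, and 19391 genes had one.

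The comparison used limma 3.58.1 (lmFit, then eBayes) in R 4.3.3. Adjustment was by Benjamini-Hochberg over all tested genes, at a threshold of 0.05. Printed signals are back on the intensity scale, at the mean 75th percentile of the arrays. The 49 genes, the other lists and the markers were chosen with earlier results of these data known, so lists are described by counts and medians without a test of the list. Named genes were all 49 and, from each other list of division genes, up to 3 of those with the smallest p; Foxm1 and the named cell type markers fall outside this rule and were chosen after their values were seen. Samples were not treated as paired by replicate number. Deviations of same-numbered samples from their group means correlated at -0.02 over all tested genes, which with 2 samples per group cannot exclude a pairing. Precision is limited by there being 4 arrays. The first alternatives were background correction by normexp (offset 50) and the same after the local background of 6 spots on EnhDel replicate 1, each over 5 times the median there, was set to the median. The others were quantile, median and cyclic loess scaling, no filter, a filter requiring all 4 arrays, averaging the probes of each gene, the replicate number as a block, an intensity trend with robust variance, the deposited log2 values and leaving out each array.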

Additional observations from a re-analysis of the deposited data

How the results depend on the processing

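The median difference of the 49 genes stayed negative in every setting run, between -1.25 in the deposited table and -1.59 with cyclic loess, and between -2.35 and -0.65 when 1 array was left out. The number of genes past the threshold among all tested was 0, and 2 with median scaling and 2 with the mean of a gene's probes, none of them among the 49. With 1 array left out it ranged from 1 to 2941, and for the 49 genes from 0 to 41; the highest counts came without EnhDel replicate 1, while leaving out EnhDel replicate 2 gave 47 genes, and leaving out control replicate 1 or 2 gave 1 and 6. The 8 genes not past the threshold without EnhDel replicate 1 were Cdc25c, Espl1, Kif15, Cenpa, Ndc80, Incenp, Hmmr and Dlgap5. Normexp with unrepaired background turned 8 dim genes positive: Aurkb to 0.85, Plk4 to 0.65, Ttk to 0.78, Cdc25c to 0.45, Kif18a to 0.012, Kif2c to 0.063, Cenpf to 0.88 and Dlgap5 to 0.027. After the repair of 6 spots all 49 were negative again, with a median of -1.29. Unrepaired normexp put the median of all genes at 0.19. In the main fit 42 of the 49 were more than 2-fold lower. That count was 31 with unrepaired normexp, 35 with repaired normexp, 34 in the deposited table and 46 with cyclic loess. Genes without overlap on the lower side numbered 46 in the main fit, then 32, 45, 47 and 46 in the same order. The shares of all tested genes for these 2 counts were taken in the main fit alone. Without EnhDel replicate 2 Cenpe turned to 0.11. At an unadjusted limma p under 0.05, 9 of the 49 were lower in the main fit, beside 3.96% of all tested genes. That count was 29 with repaired normexp, 25 with the intensity trend and 1 in the deposited table. The share of all tested genes was not counted in those settings, so these counts have no background beside them. The cause of the spread in counts was not tested. With the replicate number as a block, 0 of the 49 genes passed, the lowest adjusted p was 0.329 and the median was -1.46. Whether that number pairs samples is not known. Dim genes were limited by signal over background, since Ttk and Cenpf were not well above background on EnhDel replicate 2.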
